A study of Mus musculus with 3 samples.

Results

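Guidance genes encode the ligands and receptors first known for steering growing axons, and 67 of them were read on the arrays of 3 murine colon cancer cell lines. They were chosen by symbol alone as ephrins, Eph receptors, semaphorins, plexins, neuropilins, Slits, Robo receptors, netrins and Unc5 receptors, which gave 34 ligands and 33 receptors read by 110 probes, of 22911 named genes read by 32989 probes. *Sema4b* also fits the rule but had no named probe, so its signal was not read. It enters only the counts of promoter windows below.

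The series set the high-metastatic subline LuM1 against the low-metastatic subline NM11 and against Colon26, the murine colon adenocarcinoma line from which both derive. All 3 lines were labelled as female BALB/c and grew in the same medium with serum, none was treated, and cells were cultured for 3 days before total RNA was taken. Each line was read on 1 single-colour array from 0.1 µg of RNA, on 1 slide that carried all 3 arrays and was scanned once. A value from 1 culture has no replicate, so no difference could be tested, and each number describes these arrays and not the lines in general.

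Ephrins sit on the surface of one cell and bind Eph receptor tyrosine kinases on its neighbour, and both sides then signal, mostly to repel or to sort cells. Semaphorins bind plexins, and the secreted class 3 semaphorins do so with a neuropilin as co-receptor, whereas Slits bind Robo receptors and netrins bind Dcc, neogenin and the Unc5 receptors. These systems converge on the actin skeleton. In the intestine, EphB receptors and ephrin-B ligands keep cell layers of the crypt in place, and several guidance receptors are known as tumor suppressors or as drivers of invasion in other settings.

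A signal here is the background-corrected brightness of a probe in intensity units, after arrays were brought to a common 75th percentile. A gene was read by its brightest probe, and a gene counts as above background where the scanner software flagged a probe as well above it. The scanner software put its own error at 10% of a bright signal, and the error of the members' measured log2 ratios lay between 0.20 and 0.39. Where 1 of both signals was not well above background, only a bound of the ratio can be given, written as at least N-fold. Signals of different probes depend on their sequences and are not compared between genes. On the 3 arrays, 49.9% to 53.8% of all probes were well above background and no spot was saturated.

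The labelled tissue was checked against marker genes. Of 14 epithelial markers, 6 or 7 were above background on each array, and *Cdh1*, *Krt18*, *Krt19*, *Ocln* and *Vil1* were above it on none, while the intestinal genes *Cdx2* and *Krt20* were above background on all 3 arrays. Of 14 mesenchymal markers, 13 were above background in Colon26 and 14 in each subline. Of 10 endothelial markers only *Flt1* and *Pecam1* were above background, and *Cdh5*, *Kdr* and *Tek* were not on any array. Of 10 myeloid markers, 3 were above background in Colon26, 5 in LuM1 and 3 in NM11, and *Ptprc*, *Spi1* and *Tyrobp* on no array. *Cd68* gave 172 in Colon26, 5251 in LuM1 and 299 in NM11, and *Aif1* and *Lyz2* were above background in LuM1 alone at 110 and 112. By a ratio of 2-fold or more, LuM1 exceeded both other lines in 3 of 5 comparable myeloid markers, beside 7.33% of all named genes. *Itgam* gave 5027, 6818 and 4251 in Colon26, LuM1 and NM11, and *Csf1r* 682, 691 and 675, all within 2-fold. Of 10 neuronal markers 6 were above background in Colon26, 8 in LuM1 and 7 in NM11. The summed signal in Colon26, LuM1 and NM11 was 1496, 630 and 607 for the epithelial list, 258672, 273189 and 314034 for the mesenchymal, 570, 744 and 170 for the endothelial, and 5928, 13008 and 5268 for the myeloid one, and their part in the values below was not tested. Such sums rest mainly on the brightest probes. In the mesenchymal list, *Col1a2* gave 59896 in Colon26, 49.6 in LuM1 and 85275 in NM11, and *Fn1* gave 61264, 146728 and 81606. Between LuM1 and Colon26, 4 of 14 mesenchymal markers were at least 2-fold higher in LuM1 and 3 lower, beside 12.9% and 11.7% of all named genes. For the epithelial list the counts were 1 and 2 of 7. In RNA from a whole culture, fewer cells of a kind and less RNA per cell cannot be told apart.

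LuM1 cells held more of the guidance genes above background than the other lines. The count was 40 of 67 in Colon26 (59.7%), 50 in LuM1 (74.6%) and 45 in NM11 (67.2%), beside 57.0%, 60.0% and 59.2% of all named genes. By the looser flag, significantly above background, the counts drew together at 52, 55 and 55, and shares of all named genes by that flag are not given. By the stricter flag, 36 members were above background on every array (53.7%, against 53.6% of all named genes) and 13 on none (19.4%, against 35.2%). The latter were *Epha3*, *Epha4*, *Epha5*, *Epha8*, *Ephb1*, *Robo1*, *Robo2*, *Robo4*, *Sema3d*, *Sema3e*, *Sema3g*, *Unc5c* and *Unc5d*, so 10 of the 13 were receptors. Another 6 members were above background in LuM1 alone (8.96%, against 3.13% of all named genes), namely *Epha6*, *Ntn3*, *Plxnc1*, *Sema4d*, *Sema4f* and *Sema4g*, all with LuM1 signals between 25.8 and 62.4. A further 7 were above background in both sublines but not in Colon26 (10.4%, against 2.61%), namely *Epha1*, *Epha10*, *Ntn1*, *Ntn5*, *Sema3c*, *Sema6d* and *Unc5a*. The lowest signal well above background was 26.4 in Colon26, 20.1 in LuM1 and 19.6 in NM11, so equal signals need not carry equal flags. *Epha10* gave 20.6 in Colon26, not flagged, and 20.2 in NM11, flagged. *Robo3* and *Sema6a* were above background in Colon26 alone and *Slit1* in NM11 alone, while *Epha7* was above it in Colon26 and NM11 and *Ntn4* in Colon26 and LuM1. *Slit1* gave 22.3 in Colon26, 18.5 in LuM1 and 21.9 in NM11, so its flag does not make NM11 the highest line. *Epha6*, at 25.8 in LuM1, lay under 26.4, the lowest signal well above background in Colon26.

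**Figure D1:**
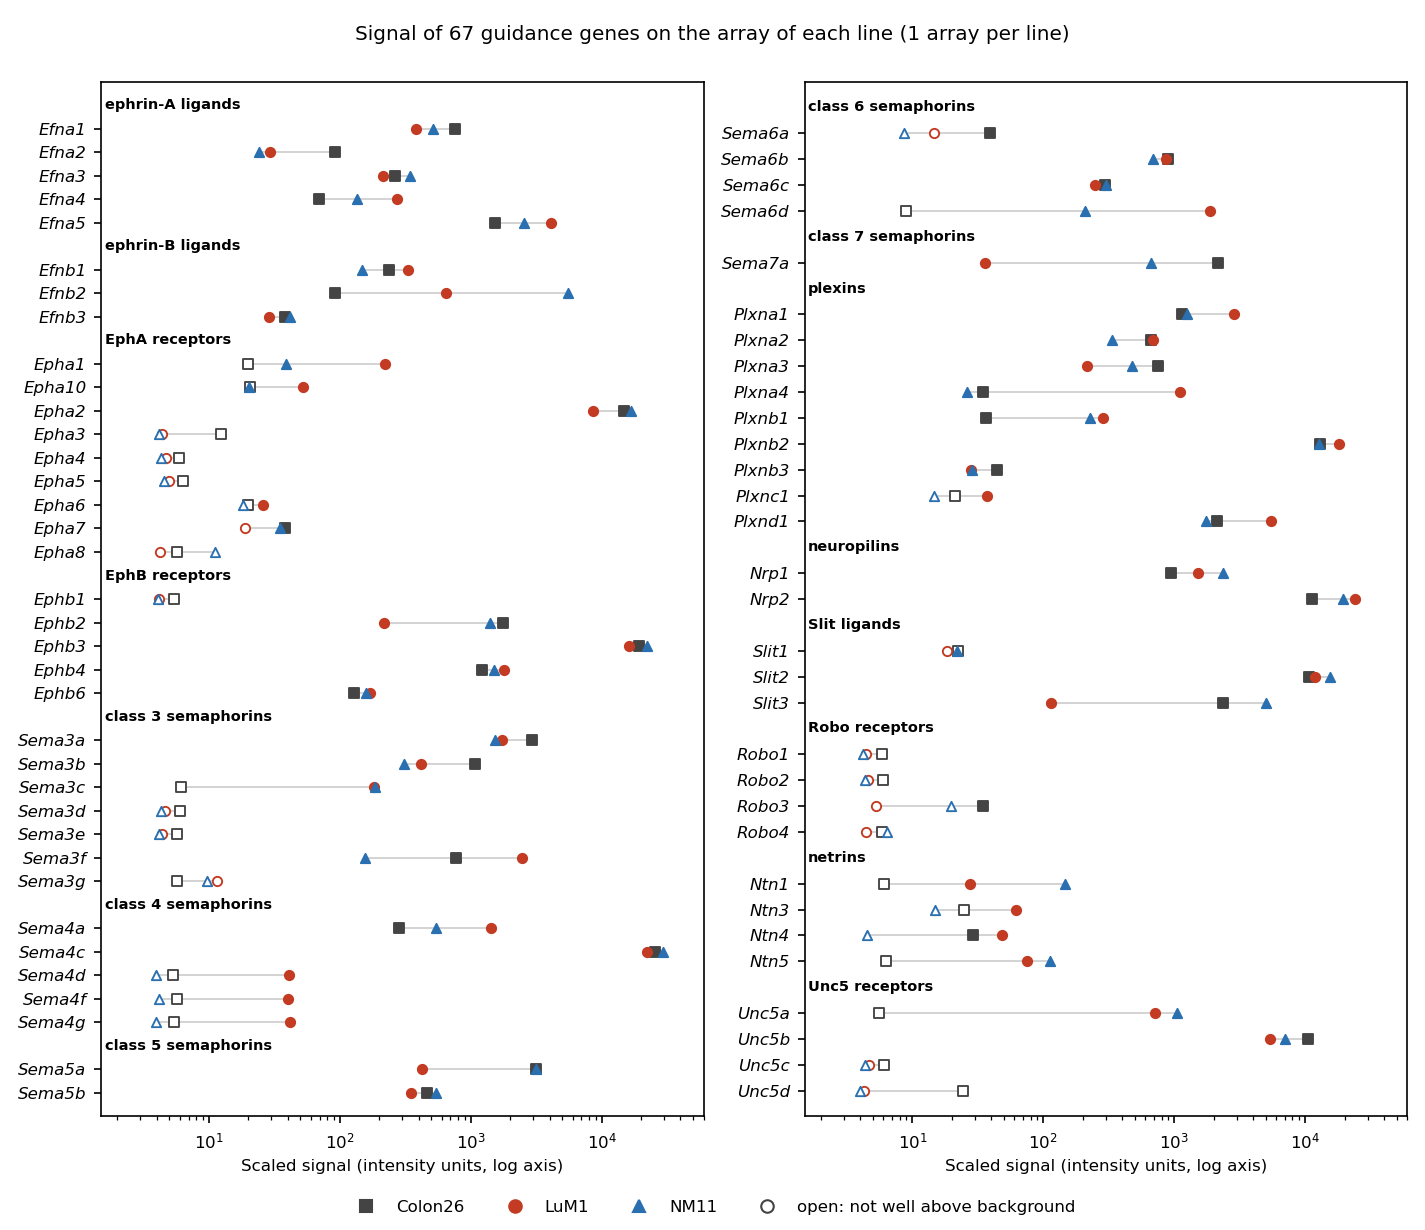
Scaled signal (intensity units, log axis) of the 67 guidance genes on the array of each line, 1 array per line, grouped by family, with open markers for signals not well above background and a line from the lowest to the highest signal of a gene. Signals can be read across the lines within a gene but not between genes. In *Sema7a*, *Slit3*, *Sema5a* and *Ephb2* the LuM1 marker lies far to the left of both others, while *Sema6d*, *Unc5a*, *Sema3c*, *Ntn1* and *Ntn5* were open markers in Colon26.

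Between LuM1 and Colon26, 16 of 53 members above background on either array had a LuM1 signal higher by 2-fold or more (30.2%, against 12.9% of all named genes) and 7 were at least 2-fold lower (13.2%, against 11.7%). The higher ones were 9 ligands and 7 receptors. Between LuM1 and NM11, 16 of 52 were higher in LuM1 (30.8%, against 11.1%) and 7 lower (13.5%, against 8.5%). Between NM11 and Colon26, 9 of 48 were higher in NM11 (18.8%, against 8.17%) and 4 lower (8.33%, against 7.74%). The last split depended on the scaling, with 9 higher and 7 lower without scaling, 8 and 9 after scaling to the spike-in controls, and 7 and 14 after scaling to *Hprt*. The split between LuM1 and NM11 also moved, to 12 and 8 with quantile normalization and 7 and 6 with another background correction (normexp). Between LuM1 and Colon26 these gave 16 and 10 and 13 and 6, and the authors' values gave 23 and 6. Shares of all named genes under these alternatives are not given.

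Compared with both other lines at once, LuM1 was at least 2-fold higher in 9 of 54 members (16.7%, against 7.33% of all named genes) and at least 2-fold lower in 5 (9.26%, against 4.03%). The 9 were *Efna4*, *Epha1*, *Ntn3*, *Plxna1*, *Plxna4*, *Plxnd1*, *Sema3f*, *Sema4a* and *Sema6d*, and the 5 were *Ephb2*, *Plxna3*, *Sema5a*, *Sema7a* and *Slit3*. Both sublines were at least 2-fold higher than Colon26 in 6 members (11.1%, against 4.53%), *Efnb2*, *Ntn5*, *Plxnb1*, *Sema3c*, *Sema6d* and *Unc5a*. Both were lower in 3 (5.56%, against 4.46%), *Efna2*, *Sema3b* and *Sema7a*. The shares that were lower in LuM1 than in Colon26, lower in NM11 than in Colon26 and lower in both sublines stood close to those of all named genes.

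**Figure D2:**
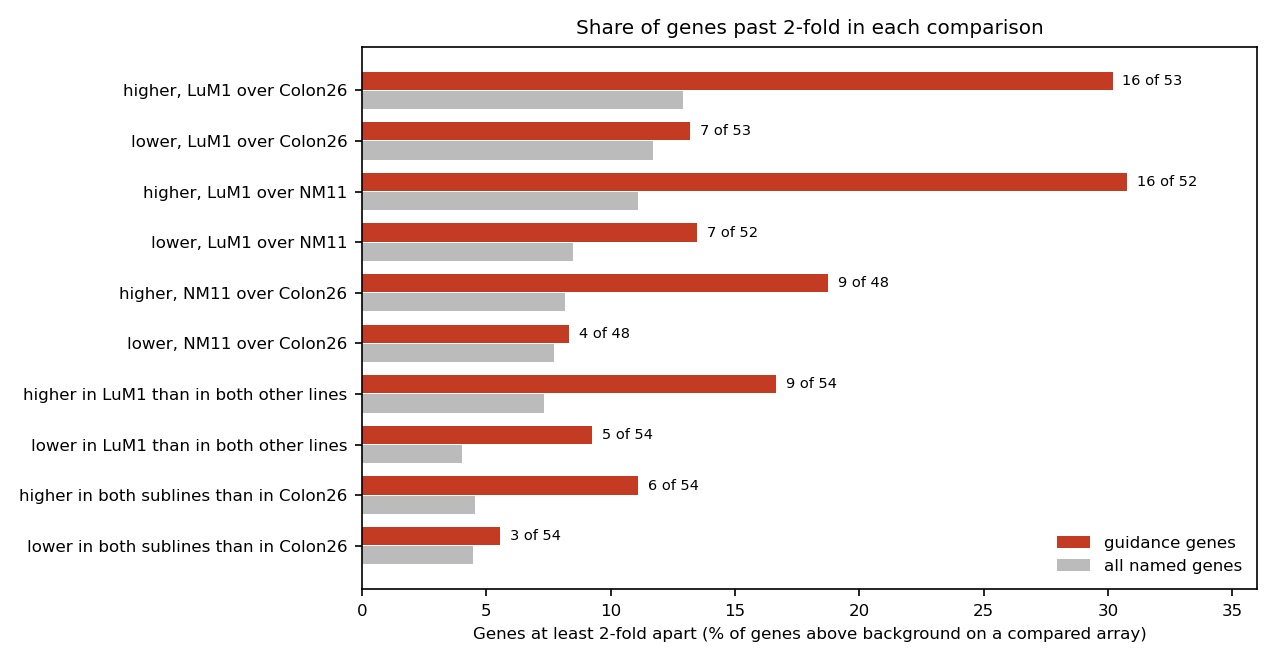
Share of guidance genes (red) and of all named genes (grey) at least 2-fold higher or lower, as a percentage of the genes above background on at least 1 of the arrays compared, with the count of guidance genes beside each red bar. The red bars for genes higher in LuM1 reach 30.2% over Colon26 and 30.8% over NM11, against 12.9% and 11.1% of all named genes.

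Over the members measured on both arrays, the median log2 ratio was -0.05 for LuM1 over Colon26 (37 members, -0.13 over all named genes), -0.01 for LuM1 over NM11 (43 members, -0.11) and 0.04 for NM11 over Colon26 (37 members, -0.02). With bounds entered at their bound, these medians were 0.44 over 52 members (-0.10 over all named genes), 0.21 over 52 (-0.09) and 0.12 over 46 (-0.01). For LuM1 over Colon26, 12 members had a lower bound and 3 an upper bound, and the median over measured members leaves these out. The measured members lay wider apart than the genes of the array as a whole. Of the measured members, 54.1% lay within 2-fold between LuM1 and Colon26, against 80.6% of all measured genes, and 58.1% against 84.4% between LuM1 and NM11. Between NM11 and Colon26 the shares were 78.4% and 88.3%.

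In 4 members the LuM1 signal was below that of both other lines by 4-fold or more. *Sema7a*, a semaphorin held on the membrane by a lipid anchor, gave a signal of 2174 ± 218 in Colon26, 36.0 ± 5.8 in LuM1 and 670 ± 67 in NM11, the errors being those of the scanner software. LuM1 was 60.4-fold lower than Colon26 and 18.6-fold lower than NM11, and NM11 itself was 3.25-fold lower than Colon26. *Slit3*, a secreted ligand of Robo receptors, gave 2345 ± 235 in Colon26, 115 ± 12 in LuM1 and 5033 ± 503 in NM11. Its signal in LuM1 was 20.4-fold below that of Colon26 and 43.7-fold below that of NM11, and NM11 was 2.15-fold above Colon26, so the sublines lay on opposite sides of the parental line. After scaling to *Hprt*, NM11 over Colon26 came to 0.61 on the log2 scale, under the threshold.

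*Sema5a*, a transmembrane semaphorin with thrombospondin repeats, gave 3141 in Colon26, 427 in LuM1 and 3151 in NM11. Colon26 and NM11 were alike within the scanner error, and LuM1 was 7.35-fold below Colon26 and 7.38-fold below NM11. A second probe of *Sema5a* was above background in Colon26 and NM11 and not in LuM1. *Ephb2*, a receptor of the crypt base in normal intestine, gave 1750 in Colon26, 218 in LuM1 and 1398 in NM11 by its brighter probe. The other probe of *Ephb2* went the same way but less far, with 238, 139 and 214, which is 1.71-fold lower in LuM1 than in Colon26 where the brighter probe gave 8.02-fold.

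The 250 bases before the start of transcription are shown for *Sema7a*, *Slit3* and *Sema5a*, since these genes were low on the same array. They were taken from the RefSeq promoter table of mouse assembly GRCm38.p6, 5′ to 3′ on the strand of the gene, at chr9:57939862-57940111 (plus strand) for *Sema7a*, chr11:35121206-35121455 (plus strand) for *Slit3* and chr15:32244563-32244812 (plus strand) for *Sema5a*. Capitals mark the GC box GGGCGG and the E-box CACCTG, bound by Snail and Zeb factors, on either strand, with overlapping matches kept.
*Sema7a*: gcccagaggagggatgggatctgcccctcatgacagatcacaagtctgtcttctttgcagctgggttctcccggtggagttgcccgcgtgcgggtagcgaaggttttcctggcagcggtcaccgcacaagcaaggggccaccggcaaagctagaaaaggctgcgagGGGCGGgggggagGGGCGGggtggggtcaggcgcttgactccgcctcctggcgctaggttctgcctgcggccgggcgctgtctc
*Slit3*: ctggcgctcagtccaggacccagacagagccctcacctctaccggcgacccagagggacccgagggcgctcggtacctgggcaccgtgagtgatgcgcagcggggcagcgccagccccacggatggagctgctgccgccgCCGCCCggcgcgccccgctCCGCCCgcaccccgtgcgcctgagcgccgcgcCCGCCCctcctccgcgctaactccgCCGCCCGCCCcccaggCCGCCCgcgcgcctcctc
*Sema5a*: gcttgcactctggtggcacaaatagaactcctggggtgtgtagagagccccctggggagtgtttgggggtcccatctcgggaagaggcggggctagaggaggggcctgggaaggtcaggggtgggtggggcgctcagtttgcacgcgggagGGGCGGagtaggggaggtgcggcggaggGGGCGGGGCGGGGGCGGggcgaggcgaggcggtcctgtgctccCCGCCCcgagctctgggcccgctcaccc
The window of *Sema7a* holds 2 GC boxes, that of *Slit3* 6 and that of *Sema5a* 5, and no E-box of this kind is in any of them. *Ephb2*, also low in LuM1 but not shown, differs, with 0 GC boxes and 1 such E-box in its window. The GC content of the *Sema7a*, *Slit3* and *Sema5a* windows is 66.4%, 78.8% and 72.0%. The median is 52.4% over 32851 windows of the table and 64.4% over the windows of guidance genes, those of *Sema4b* included.

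Among the genes with high signals in LuM1, *Sema6d* and *Plxna4* stood out. *Sema6d*, a transmembrane semaphorin that binds plexin-A1, was not well above background in Colon26 (8.9), and gave 1867 ± 187 in LuM1 and 209 ± 21 in NM11. LuM1 was at least 70.7-fold higher than Colon26 and 8.93-fold higher than NM11, NM11 was at least 7.92-fold higher than Colon26, and both other probes of the gene were above background in LuM1 alone. As a mean over its probes, NM11 over Colon26 came to 0.56 on the log2 scale, under 2-fold. *Plxna4*, a receptor that acts with neuropilins, gave 34.5 ± 6.5 in Colon26, 1104 ± 111 in LuM1 and 26.1 ± 4.9 in NM11. It was 32.0-fold higher in LuM1 than in Colon26 and 42.3-fold higher than in NM11, and the other lines lay close to each other near background.

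Other plexins were higher in LuM1 by less. *Plxna1* was 2.51-fold higher than in Colon26 and 2.29-fold higher than in NM11, and *Plxnd1* 2.60-fold and 3.13-fold, with its second probe at 1.95-fold and 1.64-fold. *Plxna3* went the other way, with 754 in Colon26, 217 in LuM1 and 474 in NM11, and both of its probes gave LuM1 the lowest signal. *Plxnb1*, the receptor of Sema4d, gave 36.5 in Colon26, 284 in LuM1 and 226 in NM11. It was thus 7.77-fold higher in LuM1 and 6.19-fold higher in NM11 than in Colon26, and the sublines were 1.26-fold apart. *Plxnb2*, the plexin named here because its probe was the brightest of the family, gave 12977, 18080 and 12720 in Colon26, LuM1 and NM11, all within 2-fold.

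Among the secreted class 3 semaphorins, *Sema3f* and *Sema3c* differed most. *Sema3f*, a ligand of neuropilin-2, gave 779 in Colon26, 2456 in LuM1 and 156 in NM11. LuM1 was 3.15-fold higher than Colon26 and 15.8-fold higher than NM11, whereas NM11 was 5.01-fold lower than Colon26. Its second probe gave 131, 220 and 24.8 in the same order, so LuM1 was 1.67-fold above Colon26 there and 8.88-fold above NM11. *Sema3c*, which signals through both neuropilins, was not well above background in Colon26 (6.1) and gave 182 in LuM1 and 186 in NM11, at least 6.89-fold and at least 7.03-fold above Colon26. The sublines did not differ in *Sema3c* beyond the scanner error.

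*Sema3a*, the class 3 member with the brightest probe, gave 2932 in Colon26, 1745 in LuM1 and 1543 in NM11, within 2-fold by this probe. By its second probe Colon26 was 2.29-fold above LuM1 and 2.17-fold above NM11. *Sema3b* gave 1072 in Colon26, 416 in LuM1 and 310 in NM11, so both sublines were lower than the parental line.

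*Sema4a*, a transmembrane semaphorin of immune and other cells, gave 285 in Colon26, 1421 in LuM1 and 543 in NM11. LuM1 was 4.98-fold higher than Colon26 and 2.62-fold higher than NM11. *Sema4d*, *Sema4f* and *Sema4g* were near background everywhere, with LuM1 signals of 40.7, 40.3 and 41.6, and each was at least 2.06-fold higher than in NM11. The spots of *Sema4d* and *Sema4g* on the LuM1 array, and that of *Sema6a* on the Colon26 array, lay where spots above background on that array alone were 4.17 to 6.96 times as frequent as over the whole array, and the part of this in their detection was not tested. Without spots of that kind, 14 members in place of 16 were higher in LuM1 than in NM11, and the share of all named genes without them is not given. *Sema4c* gave 25632, 22105 and 29291 in Colon26, LuM1 and NM11 by its brightest probe, yet a second probe gave 105, 788 and 126. That probe alone would make LuM1 7.50-fold higher than Colon26, and the third was within 2-fold, so no single ratio stands for *Sema4c*. *Sema6b*, the class 6 member with the brightest probe, gave 896, 866 and 683.

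**Figure D3:**
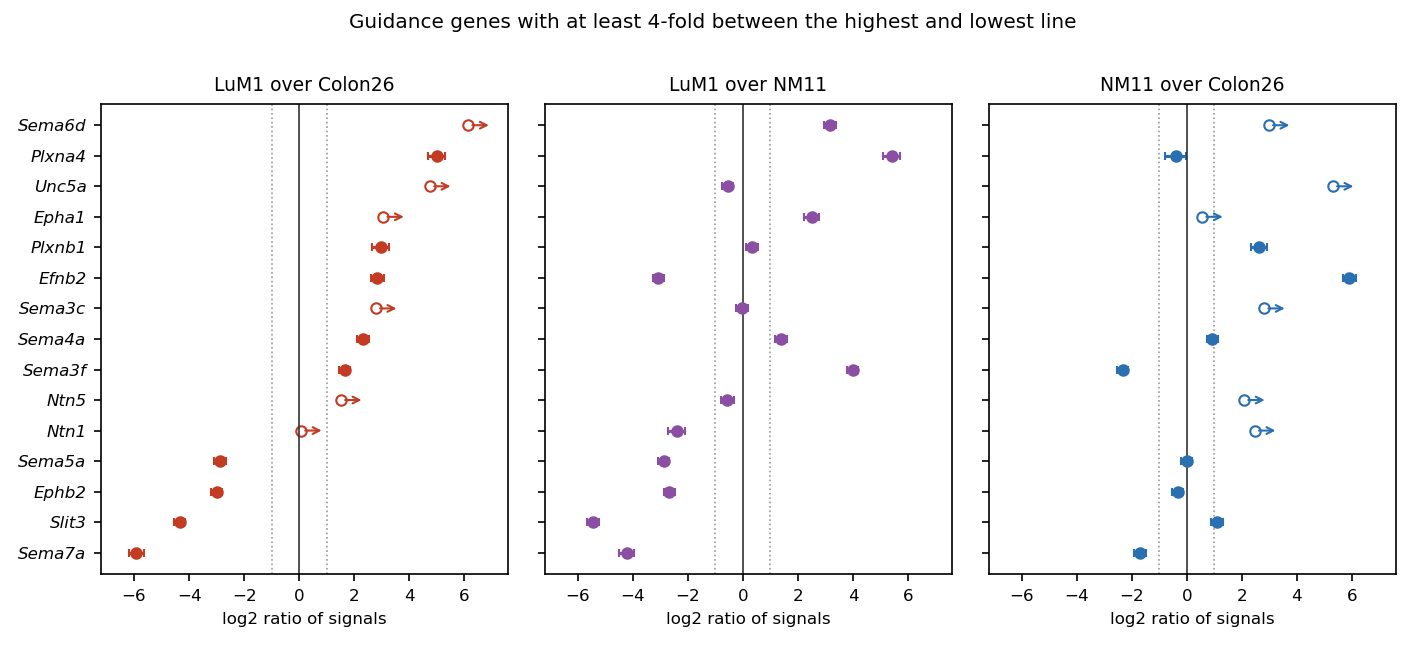
Log2 ratios of the 15 guidance genes with at least 4-fold between their highest and lowest line, for LuM1 over Colon26, LuM1 over NM11 and NM11 over Colon26. Filled points are measured ratios with bars of 1 scanner error, open points with arrows are bounds, and dotted lines mark 2-fold. *Sema7a*, *Slit3*, *Ephb2* and *Sema5a* lie below -2 in both LuM1 panels, and *Sema3f* and *Slit3* lie on opposite sides of 0 in LuM1 and NM11 relative to Colon26.

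Both neuropilins, the co-receptors of class 3 semaphorins, depended on the probe. *Nrp2* gave 11335 in Colon26, 23834 in LuM1 and 19535 in NM11, which is 2.10-fold higher in LuM1 than in Colon26. A second *Nrp2* probe gave 2.35-fold, and the third went slightly the other way, with 17164 in Colon26 and 15263 in LuM1. *Nrp1* gave 940 in Colon26, 1530 in LuM1 and 2375 in NM11, and was 2.53-fold higher in NM11 than in Colon26. Its 3 probes placed LuM1 between 1.78-fold below and 1.63-fold above Colon26.

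Over all members, 14 had at least 2 measured probes between LuM1 and Colon26. Their probes gave the same direction in 9 and lay within 2-fold of each other in 10, and those farther apart were *Ephb2*, *Nrp1*, *Nrp2* and *Sema4c*. Between LuM1 and NM11 the counts were 9 and 12 of 14. Why probes of 1 gene differed was not tested, and 35 members had 1 probe and so no such check. These included *Sema7a*, *Slit3*, *Plxna4*, *Unc5a*, *Efnb2*, *Sema3c* and *Epha1*.

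**Figure D4:**
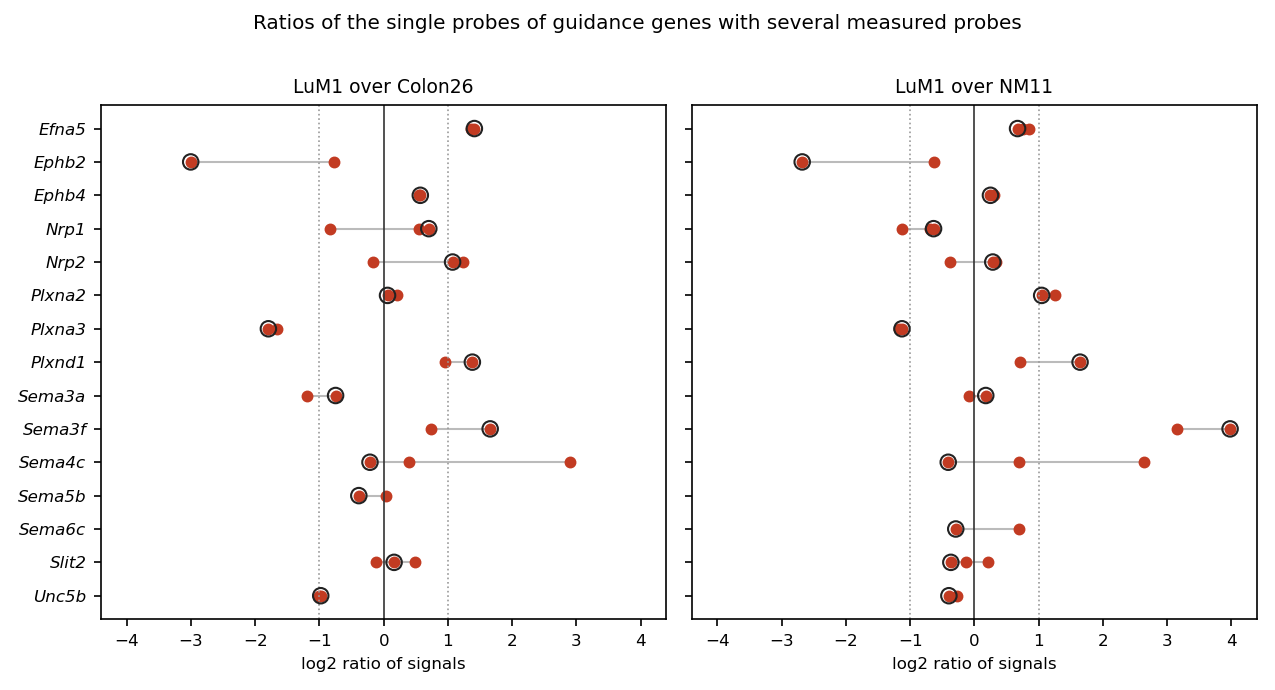
Log2 ratios of the single probes (red points) of guidance genes with at least 2 measured probes, for LuM1 over Colon26 and LuM1 over NM11, with a ring around the probe that stands for the gene and dotted lines at 2-fold. The probes of *Efna5*, *Plxna3* and *Unc5b* fall together, while those of *Sema4c*, *Ephb2*, *Nrp1* and *Nrp2* are more than 2-fold apart for LuM1 over Colon26.

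Ephrin ligands were above background on all 3 arrays, 8 of 8. *Efnb2*, the ligand of EphB4 and EphB2, gave 91.2 in Colon26, 653 in LuM1 and 5494 in NM11. It was 7.16-fold higher in LuM1 and 60.2-fold higher in NM11 than in Colon26, and LuM1 stayed 8.42-fold below NM11. *Efna5* gave 1532 in Colon26, 4074 in LuM1 and 2555 in NM11, and its 3 probes placed LuM1 between 1.59-fold and 1.81-fold above NM11. *Efna4* gave 69.7, 273 and 136 in the same order, 3.92-fold higher in LuM1 than in Colon26. *Efna2* gave 92.3, 29.2 and 24.1, so Colon26 was the high line. *Efnb1* was 2.24-fold higher in LuM1 than in NM11. *Efna1* stood just under the threshold at 1.98-fold lower in LuM1 than in Colon26, and *Efna3* and *Efnb3* were within 2-fold in every comparison.

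Of the 14 Eph receptors, 6 were above background in Colon26 and 8 in each subline, and 5 were above it on no array. *Epha1* was not well above background in Colon26 (19.9) and gave 220 in LuM1 and 39.1 in NM11, so LuM1 was at least 8.31-fold above Colon26 and 5.62-fold above NM11. *Epha2* and *Ephb3*, the members with the brightest probes of their families, were within 2-fold in every comparison. *Epha2* gave 14939 in Colon26, 8565 in LuM1 and 16820 in NM11, and *Ephb3* gave 19429, 16240 and 22219. *Ephb4*, whose probes fell together, gave 1210, 1796 and 1509, and *Ephb6*, which has no active kinase, 127, 169 and 160. *Epha10* was 2.58-fold higher in LuM1 than in NM11 at signals of 52.2 and 20.2.

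Slit signals stood beside Robo probes at background. *Slit2* gave 10716 in Colon26, 11988 in LuM1 and 15444 in NM11 and was within 2-fold by all 3 probes. *Slit1* was near background throughout. *Robo1* and *Robo2*, the main Slit receptors, were not well above background by either of their probes on any array, nor was *Robo4*, the endothelial one. *Robo3* gave 34.4 in Colon26, 5.3 in LuM1 and 19.8 in NM11, above background in Colon26 alone.

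Of the netrin receptors, *Unc5a* differed most. *Unc5a* was not well above background in Colon26 (5.6) and gave 712 in LuM1 and 1048 in NM11, at least 27.0-fold and at least 39.7-fold above Colon26, with the sublines within 2-fold of each other. *Unc5b* gave 10583, 5365 and 7060 in Colon26, LuM1 and NM11, 1.97-fold lower in LuM1 than in Colon26, and both probes fell together. *Unc5c* and *Unc5d* were above background on no array. Netrin signals were low. *Ntn1* was not well above background in Colon26 (6.1) and gave 27.7 in LuM1 and 147 in NM11, 5.32-fold lower in LuM1 than in NM11. *Ntn5* was not well above background in Colon26 (6.3) and gave 75.6 and 112 in LuM1 and NM11, at least 2.86-fold and at least 4.24-fold above Colon26, though its second probe was above background on no array and its log2 ratio of LuM1 over Colon26 was 0.77 with another background correction. *Ntn3* was above background in LuM1 alone with 62.4, and *Ntn4* gave 28.9 in Colon26 and 48.3 in LuM1.

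A second set of windows belongs to 3 of the genes that were at least 4-fold higher in both sublines than in Colon26. *Plxnb1* and *Sema6d* also passed this and are not shown. The window of *Plxnb1* holds 4 GC boxes, and those of *Sema6d* hold 1 and 0, the latter with 1 E-box. The windows shown lie at chr5:17574566-17574815 (plus strand) for *Sema3c*, chr13:54949161-54949410 (plus strand) for *Unc5a* and chr8:8661243-8661492 (minus strand) for *Efnb2*, printed as above.
*Sema3c*: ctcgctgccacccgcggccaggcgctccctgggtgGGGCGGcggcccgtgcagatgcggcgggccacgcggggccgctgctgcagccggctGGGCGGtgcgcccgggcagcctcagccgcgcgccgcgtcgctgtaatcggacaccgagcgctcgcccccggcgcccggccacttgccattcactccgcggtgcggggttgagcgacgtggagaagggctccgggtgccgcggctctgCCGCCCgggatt
*Unc5a*: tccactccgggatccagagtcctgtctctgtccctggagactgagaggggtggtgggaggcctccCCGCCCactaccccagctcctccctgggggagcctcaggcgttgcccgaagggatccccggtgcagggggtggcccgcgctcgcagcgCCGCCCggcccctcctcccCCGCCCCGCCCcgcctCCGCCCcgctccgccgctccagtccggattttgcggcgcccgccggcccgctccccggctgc
*Efnb2*: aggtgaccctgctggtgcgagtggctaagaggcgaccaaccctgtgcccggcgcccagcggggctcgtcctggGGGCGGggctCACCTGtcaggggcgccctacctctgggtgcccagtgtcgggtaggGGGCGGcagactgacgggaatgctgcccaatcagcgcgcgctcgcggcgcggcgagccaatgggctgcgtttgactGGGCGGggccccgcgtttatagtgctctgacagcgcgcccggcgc
Here *Sema3c* holds 3 GC boxes, *Unc5a* 5 and *Efnb2* 3, and *Efnb2* also holds 1 E-box and 1 TATA box (TATAAA). Over 75 windows of 59 guidance genes, 70.7% held a GC box, against 32.7% of all windows of this length. Of these genes 58 had a named probe, and the other was *Sema4b*. The windows of guidance genes also had more GC, with a median of 64.4% against 52.4%. The E-box was in 13.3% against 17.2%, the AP-1 site TGANTCA in 4.0% against 6.75% and the TATA box in 2.67% against 12.4%. Every window shown holds GC boxes, in the set low in LuM1 and in the set higher in both sublines than in Colon26. A match in these letters is not a bound site.

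Genes that act beside or below these receptors were counted on lists drawn up from general knowledge. Of 19 co-receptors and other cues, 12 were above background on the Colon26 or LuM1 array, of which 2 were higher in LuM1 than in Colon26 by 2-fold or more and 3 lower, beside 12.9% higher and 11.7% lower of all named genes. Against NM11, 0 were higher in LuM1 and 5 lower of 13, beside 11.1% and 8.5%. *Gpc1*, a heparan sulfate proteoglycan that binds Slits, gave 29764 in Colon26, 4676 in LuM1 and 24034 in NM11 and was 6.37-fold lower in LuM1 than in Colon26. *Flrt3*, a ligand of Unc5 receptors, gave 507, 93.6 and 440, 5.41-fold lower in LuM1, whereas its relative *Flrt2* gave 340, 1210 and 2632. The netrin receptor gene *Dcc* gave 7742, 14847 and 13687, and the related *Neo1* 2192, 1172 and 2047, both within 2-fold.

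Of 57 signal transducers, 49 could be compared between LuM1 and Colon26, and 9 were higher in LuM1 and 5 lower, beside the same 12.9% and 11.7% of all named genes. Against NM11 the counts were 8 and 5 of 50, beside 11.1% and 8.5%. The rule for naming genes of these lists took only those measured on both arrays, and *Dcc*, *Neo1*, *Crmp1* and *Vav3* were chosen outside it, after their values were seen. *Mical1*, an enzyme that oxidises actin below plexins, gave 87.8 in Colon26, 2693 in LuM1 and 59.9 in NM11, 30.7-fold higher in LuM1 than in Colon26. *Ablim3*, an actin-binding protein, gave 63.9, 544 and 70.2, and the adaptor *Nck2* gave 998, 3869 and 784. *Mical1*, *Ablim3* and *Nck2* thus had 1 high line, LuM1, as *Plxna4* did, but they were named for their high ratios over Colon26. *Flrt2*, named by the same rule, was highest in NM11. *Ngef*, an exchange factor that EphA receptors activate, gave 4331 in Colon26, 234 in LuM1 and 691 in NM11, 18.5-fold lower in LuM1 than in Colon26. *Dpysl3*, a phosphoprotein of semaphorin signaling, gave 35547, 7671 and 15292, 4.63-fold lower. Its relative *Crmp1* went the other way and was above background in LuM1 alone, at 1522, at least 57.6-fold above Colon26 and at least 77.8-fold above NM11. *Vav3*, an exchange factor, was not well above background in Colon26 (7.4) and gave 1288 in LuM1 and 103 in NM11, at least 48.8-fold above Colon26 and 12.5-fold above NM11.

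Between LuM1 and Colon26 the median log2 ratio was -0.57 for the co-receptors and cues and 0.13 for the transducers, beside -0.13 over all named genes.

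Guidance genes were first described in neurons, so the neuronal markers are given beside them. Their summed signal was 15090 in Colon26, 9840 in LuM1 and 10988 in NM11. Of the 8 compared between LuM1 and Colon26, 1 was at least 2-fold higher in LuM1 and 3 lower, beside 12.9% and 11.7% of all named genes. The part of the neuronal markers in the values of the guidance genes was not tested.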

How the data were processed

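Total RNA from cultured Colon26, LuM1 and NM11 cells was labelled with Cy3 and hybridised to a SurePrint G3 mouse gene expression array, 1 array per line. The intensity of every spot, as the authors deposited it, came from Agilent Feature Extraction 11.5.1.1, background-subtracted and detrended within the array, with no scaling between arrays. The deposited flags of 0 or 1 mark spots above background, outliers and saturation. The table of intensity values which the authors made for the whole series equalled the scanner values times 1 factor per array (0.654, 0.829 and 0.706 for Colon26, LuM1 and NM11).

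Control and outlier spots were left out, repeated spots were averaged, and signals were divided by the 75th percentile of their array over all spots that were not controls (581, 625 and 552 in the same order) and brought to a common 585. Probes were named through RefSeq accessions of GRCm38.p6 (58.3% of 56599), since the files hold no gene names. The array was designed on an older assembly. A gene was read by the probe whose log2 signal, averaged over the arrays, was highest. A signal not well above background entered as the higher of itself and the lowest signal well above background on its array (26.4, 20.1 and 19.6), and no ratio was given where both were dim or the bound fell under 1.

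With 1 array per line, no test was run. A call is a ratio of at least 2-fold, measured or bound, and its share is given beside that of all named genes. Values on every array are given for members at least 4-fold apart and for the member with the brightest probe of each family, and for up to 5 other pathway genes in each direction, taken from those measured on both arrays. The members, lists and tests were chosen with earlier results of these data known, and the counts for both sublines against Colon26 were added after seeing the values. Alternatives were other scalings, quantile normalization, normexp background correction (offset 50, on the median brightness, the column the files hold), the authors' values, other detection and probe rules, leaving out local clusters of spots (within 5 rows and columns, at least 3 times the share of the whole array) and a 4-fold threshold. One further gene list is not reported here. Python 3.11.15, numpy 2.4.6, pandas 2.3.3, matplotlib 3.10.9, R 4.3.3 and limma 3.58.1 were used. The number of arrays limits the precision.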

Additional observations from a re-analysis of the deposited data

Results flagged for a closer look

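In 2 members the sublines moved in opposite directions from Colon26 by at least 2-fold. *Sema3f* had a log2 ratio of 1.66 for LuM1 over Colon26 and -2.32 for NM11 over Colon26. *Slit3* had -4.35 for LuM1 over Colon26 and 1.102 for NM11 over Colon26. Both ratios of a gene use the same Colon26 array, each line had 1 array, and the difference between the sublines' ratios was not tested.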

How the results depend on the processing

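For the 15 members at least 4-fold apart, 35 ratios were past 2-fold, 32 of them stayed past it under each of the 12 alternatives run for single genes, and 0 reversed. These members were chosen on these same arrays for being 4-fold apart, so their ratios had room to stay past 2-fold. Members nearer to 2-fold were not put through this check. The exceptions in log2 were *Ntn5*, LuM1 over Colon26, at 0.77 with normexp, *Sema6d*, NM11 over Colon26, at 0.56 with the mean over probes, and *Slit3*, NM11 over Colon26, at 0.61 scaled to *Hprt* and 0.78 scaled to the E1A spike-in controls.

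Counts that moved by over 1.5 times were as follows. With a 4-fold threshold, 8 members were higher and 4 lower in LuM1 than in Colon26, 4 were higher in LuM1 than in NM11, 1 was lower in NM11 than in Colon26, 3 were higher in LuM1 than in both, and 0 were lower in both sublines. With the looser detection flag, and likewise with no filter on dim probes, 12 were lower in LuM1 than in Colon26, 8 lower in NM11 than in Colon26 and 6 lower in both sublines. Normexp left 7 higher in LuM1 than in NM11, against 6 lower. Members lower in NM11 than in Colon26 numbered 7 without scaling, 14 scaled to *Hprt* and 9 scaled to the spike-ins. The authors' values gave 15 higher in LuM1 than in both. Shares of all named genes under these alternatives are not given, so these counts do not set the members against the array as a whole.

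The median log2 ratio of the members for LuM1 over Colon26 became 0.40 with the authors' values, 0.16 with the looser flag and 0.18 with the mean over probes. For LuM1 over NM11 it became 0.57 with *Hprt*, 0.30 with the spike-ins, 0.40 with the authors' values and 0.28 with the mean over probes, and for NM11 over Colon26 -0.45 with *Hprt* and -0.28 with the spike-ins. Part of this is the scaling itself, which moved the median of all named genes for LuM1 over NM11 by 0.59 with *Hprt*, 0.32 with the spike-ins, 0.41 with the authors' values and 0.18 without scaling, and for LuM1 over Colon26 by 0.45 with the authors' values, 0.11 without scaling and 0.10 with *Hprt*. For NM11 over Colon26 it moved by -0.49 with *Hprt* and -0.32 with the spike-ins. With no filter these shifts were -0.21, 0.18 and -0.23 for LuM1 over Colon26, LuM1 over NM11 and NM11 over Colon26. The cause of the other moves was not tested.

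No count above background exists without a detection filter, so that alternative was not run for it. No paired analysis was possible because each line had 1 array. Signals near background, such as those of *Sema4d*, *Ntn3* and *Robo3*, carry the least precise ratios.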
